A study of Mus musculus with 24 samples.

Results

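Ramp and Rgs genes encode regulators that act on G-protein-coupled receptors (GPCRs) and on the G proteins below them. Receptor activity-modifying proteins (RAMPs) are single-pass membrane proteins that pair with receptors such as the calcitonin receptor-like receptor, encoded by Calcrl, and set which peptide hormone the pair responds to. RGS proteins (regulators of G-protein signalling) speed the hydrolysis of GTP by G-protein alpha subunits and so shorten the signal after a receptor is activated. The 10 genes described here, Ramp1, Ramp2, Ramp3, Rgs2, Rgs3, Rgs10, Rgs12, Rgs14, Rgs16 and Rgs19, were taken by symbol from the 23235 genes of the table. They were chosen with their values known, so their levels and ratios are a description.

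The data are RNA-seq of T11 cells, a claudin-low mammary tumour line from the mouse, and all groups carry a luciferase gene. PBS served as the control, and Omomyc, FPP-1746 and the fusion FPP-1746-Omomyc were each given at 5 µM, for 3 h or 6 h, in 8 groups of 3 replicates (24 samples in all). Omomyc, a mutant MYC dimerisation domain, competes with MYC for DNA and for its partner MAX. The carrier FPP-1746 helps cargo to enter cells. All results come from a single cell line, and the labels do not say how the replicates were separated. For the fusion at 6 h, the 3 titles and the table column say 6 h but a treatment tag reads 3 h, and the titles were followed.

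The authors deposited 1 averaged column per group in FPKM, a fragment number scaled by transcript length and library size. With a single value per group there is no spread between replicates, and no test or p-value can be given for any difference. Column sums ranged from 445657 FPKM in the fusion at 6 h to 594951 FPKM in the fusion at 3 h. Read from the steps between low values, 1 FPKM of a transcript of 2000 bases was roughly 49.9 to 104.9 fragments, an uneven estimate since each column averages 3 libraries. All 10 mesenchymal markers of the cell type had a mean of at least 1 FPKM, and Vim was at 3302 to 5128 FPKM. The 7 epithelial markers stayed under 0.1 FPKM in every column, as did 4 of 5 endothelial markers and all 4 haematopoietic markers, with the endothelial marker Pecam1 at most at 0.166 FPKM. Of 5 pericyte and smooth muscle markers, 2 reached the minimum, Acta2 and Pdgfrb. The summed level of the 5 was lowest in the fusion, and most of it was Acta2. In the fusion Acta2 stood at 21.7 FPKM at 3 h and 13.5 at 6 h against 62.2 to 143 in the other columns. Pdgfrb went the other way at 3 h, at 4.16 FPKM in the fusion and 2.22 in PBS. At 6 h it was at 3.46 FPKM in the fusion, between 2.95 in PBS and 3.62 in FPP-1746. The part of these genes in the results below was not tested. A low value in this table is not proof of absence, since Gapdh, a gene of glycolysis used by all cells, was listed at only 0.249 to 0.518 FPKM.

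Averaged over the 8 columns, 7 of the 10 members reached 1 FPKM and were set against the 10262 genes of the table that reached that minimum. All 7 also reached a mean of 1 FPKM over the 6 columns without the fusion, the lowest being Rgs3 at 1.11 FPKM. Ratios are log2 of FPKM + 1, which understates the change of genes near 1 FPKM, and a gene was called at 2-fold or more on that scale. In the fusion against PBS, Ramp3, Rgs2 and Rgs3 were called higher at 3 h and Ramp3, Rgs2 and Rgs16 at 6 h, and Rgs19 was called lower at 6 h. The background in either direction was 10.6% of all tested genes at 3 h and 10.5% at 6 h. Genes called higher were 6.13% at 3 h and 7.13% at 6 h, and genes called lower were 3.34% at 6 h. The members were picked on these values, so their 3 and 4 calls of 7 are not read against that share.

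**Figure D1:**
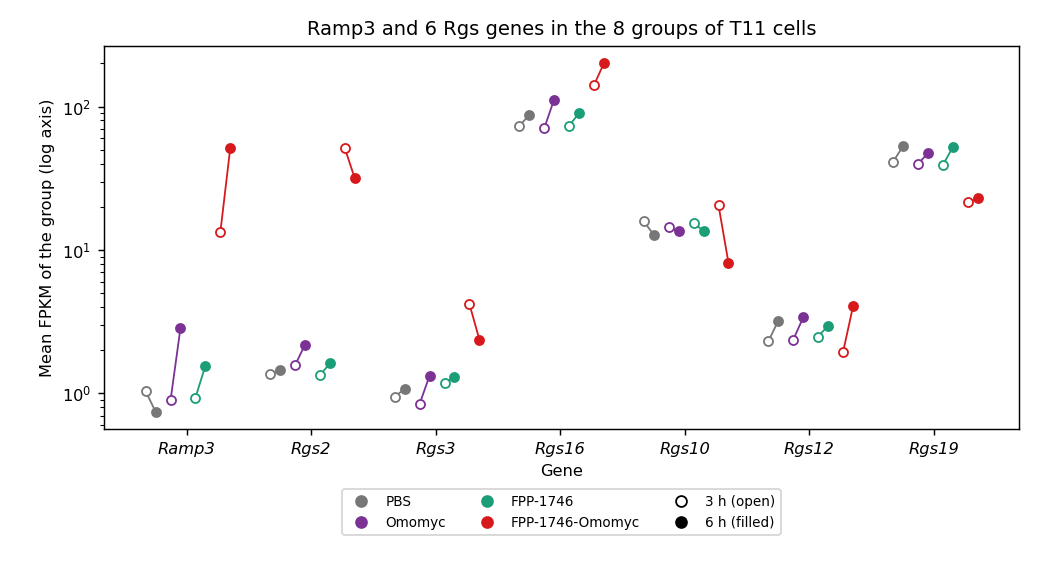
Deposited mean FPKM (log axis) of the 7 members above the minimum, with 3 h as open and 6 h as filled circles joined by a line, and treatments by colour. Each point is 1 averaged column, so no error bars can be drawn. Ramp3 and Rgs2 in the fusion stand at 13.3 to 51.6 FPKM, against at most 2.85 FPKM in every other group, while Rgs19 in the fusion lies below its values in all other groups.

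Ramp3 had the largest ratio of the members at 6 h. Its protein joins the calcitonin receptor-like receptor to form an adrenomedullin receptor. Ramp3 lies on chromosome 11 from 6550151 to 6577478 in mm9. The table gives it a locus shared with Gm11978, which was listed at 0 in 7 columns and reached 0.054 FPKM with the fusion at 6 h. At 3 h Ramp3 stood at 1.04 FPKM in PBS, 0.893 in Omomyc, 0.932 in FPP-1746 and 13.3 in the fusion. At 6 h the same treatments gave 0.747, 2.85, 1.56 and 51.6 FPKM. The fusion was above all other columns at both times, and its level was 3.89 times higher at 6 h than at 3 h. Against PBS the fusion was 12.8 times higher in FPKM at 3 h (log2 ratio 2.81) and 69.2 times higher at 6 h (log2 ratio 4.91). Among the 10262 genes, Ramp3 took rank 73 from the highest ratio at 3 h and rank 10 at 6 h.

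Ramp3 was also the single member called in a group that received 1 part of the fusion alone. No member was called for Omomyc at 3 h or for FPP-1746 at either time, where 0.614%, 0.614% and 0.555% of all tested genes were called. With Omomyc at 6 h its FPKM was 3.82 times that of PBS (log2 ratio 1.14). Of all tested genes, 0.682% were called in that comparison, and most of these were records of small RNAs. With those records left out, 6 of 10121 genes (0.0593%) were called, of which 4 were higher. Those 4 were Ramp3, Fosb, Osbp2 and LOC100302567. These genes are named after their values were seen. Fosb encodes a subunit of the AP-1 transcription factor, and Osbp2 an oxysterol-binding protein. The ratio of Ramp3 in this comparison was 0.45 with a pseudocount of 5, under 2-fold, since both FPKM values are low. FPP-1746 at 6 h gave Ramp3 a log2 ratio of 0.55. Among all tested genes this was rank 42 from the highest, beside rank 29 for Ramp3 with Omomyc at 6 h. At 3 h both parts were slightly below PBS, at -0.10 for Omomyc and -0.08 for FPP-1746. From lowest to highest, the order of the 6 h columns was thus PBS, FPP-1746, Omomyc and the fusion, and these comparisons share the same PBS column.

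The other RAMP genes were at or near 0. Ramp1, whose protein forms the receptor for calcitonin gene-related peptide, was at most at 0.0661 FPKM, in the fusion at 6 h. Ramp2, whose protein forms the other adrenomedullin receptor, was listed at 0 in all 8 columns. The partners of these proteins were low as well. Of 17 receptors and ligands on the list for RAMPs that are in the table, 1 reached the minimum: Crcp, which encodes the receptor component protein that couples the receptor complex to its signal. Crcp was at 32.7 FPKM in PBS and 15.9 in the fusion at 3 h, a log2 ratio of -0.99, and at 31.5 and 27.1 FPKM at 6 h. Calcrl, the main partner receptor, was at 0.205 FPKM in PBS and 0.488 in the fusion at 3 h, and at 0.112 and 0.649 FPKM at 6 h. These Calcrl values lie under the minimum, and no ratio was called for them. The calcitonin receptor gene Calcr was listed at 0 throughout, and the adrenomedullin gene Adm reached at most 0.232 FPKM, in the fusion at 3 h.

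Rgs2 had the largest ratio of the members at 3 h. It encodes an R4-family RGS protein with a preference for alpha subunits of the Gq class and is known as a gene induced quickly by cAMP and other signals. It lies on chromosome 1 from 145846468 to 145851279 in mm9 and shares its locus with no other gene. At 3 h Rgs2 stood at 1.36 FPKM in PBS, 1.57 in Omomyc, 1.34 in FPP-1746 and 51.0 in the fusion. The 6 h columns held 1.47, 2.19, 1.62 and 31.5 FPKM in the same order. The fusion columns did not come near the others at either time, but here the 3 h value was the higher of the pair, by 1.62 times. Against PBS the fusion was 37.6 times higher in FPKM at 3 h (log2 ratio 4.46) and 21.5 times higher at 6 h (log2 ratio 3.72). Rgs2 took rank 23 from the highest ratio at 3 h and rank 22 at 6 h. Neither part alone was called for Rgs2, with Omomyc at 6 h giving the highest log2 ratio, 0.37.

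The sequences before the start sites of Rgs2 and Ramp3 are shown because these 2 genes were the most different members in the fusion. They are the 250 bases upstream of the annotated start, read 5′ to 3′ on the strand of the gene, from RefSeq in GRCm38.p6, a later build than the mm9 of the table. Rgs2 is at chr1:144004150-144004399 on the minus strand and Ramp3 at chr11:6658283-6658532 on the plus strand. Capitals mark TGACG, the core of the cAMP response element, on either strand.
Rgs2: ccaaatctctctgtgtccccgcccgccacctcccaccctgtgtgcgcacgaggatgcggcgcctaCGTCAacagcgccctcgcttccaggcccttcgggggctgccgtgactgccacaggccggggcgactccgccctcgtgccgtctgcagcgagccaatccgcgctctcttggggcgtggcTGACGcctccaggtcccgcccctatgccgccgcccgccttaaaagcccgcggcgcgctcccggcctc
Ramp3: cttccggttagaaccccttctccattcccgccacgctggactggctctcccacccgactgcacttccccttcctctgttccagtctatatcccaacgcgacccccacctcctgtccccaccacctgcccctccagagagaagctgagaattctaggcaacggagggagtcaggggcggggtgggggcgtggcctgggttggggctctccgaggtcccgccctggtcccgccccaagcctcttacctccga

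The Rgs2 window holds the core TGACG at 2 places, with first bases 185 and 67 bases before the start, and the Ramp3 window holds none. TGACG occurs on at least 1 strand in 17.8% of 32851 promoter windows of the same length. The full palindrome TGACGTCA (1.55% of windows), which contains the core, the E-box CACGTG bound by MYC and MAX (6.02%), the AP-1 element TGANTCA (6.75%) and the amino acid response core TGATGNAA (3.45%) were searched for as well, on both strands. None of these occurs in the Rgs2 or Ramp3 window. Promoter windows were at hand for 8 members, in 12 records. Outside Rgs2, the Rgs12 window at the second of its 2 starts was the only one with a match. It holds TGACG with its first base 82 bases before the start and TGANTCA 22 bases before it. A match is a description of the letters and no sign that a factor binds.

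Rgs3 and Rgs16, which like Rgs2 belong to the R4 family, differed less between the fusion and PBS. Rgs3 encodes an RGS protein with long and short forms that acts on the Gi and Gq classes. Its 3 h columns held 0.948 FPKM in PBS, 0.845 in Omomyc, 1.18 in FPP-1746 and 4.19 in the fusion. At 6 h they held 1.08, 1.33, 1.30 and 2.37 FPKM. The fusion was the highest column at each time, with FPKM 4.42 and 2.21 times that of PBS. On the scale of FPKM + 1 the log2 ratios were 1.41 and 0.70, so Rgs3 was called at 3 h and not at 6 h. The call at 3 h was lost with a pseudocount of 5, at 0.63, and the value at 6 h passed with a pseudocount of 0.1, at 1.07. Rgs3 lies on chromosome 4 from 62220881 to 62364053.

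Rgs16 was the most abundant member in every column. Its protein acts on the Gi and Gq classes and is known to be induced in inflammation and by receptor signalling. At 3 h it stood at 73.3 FPKM in PBS, 70.4 in Omomyc, 73.6 in FPP-1746 and 141 in the fusion. At 6 h the values were 87.1, 112, 89.8 and 201 FPKM. The fusion was the highest column at both times, and at 6 h Omomyc alone came next, 1.28 times above PBS, which had the lowest value. The log2 ratio of the fusion to PBS was 0.93 at 3 h, just under 2-fold, and 1.19 at 6 h. Against Omomyc at 6 h the log2 ratio was 0.84, so Rgs16 was not called there, but it passed under quantile normalisation, at 1.04. In FPKM the fusion exceeded PBS by 67.7 at 3 h and by 113 at 6 h, a larger difference in level than that of Ramp3 or Rgs2 despite the smaller ratio. Rgs16 lies on chromosome 1 from 155587483 to 155592598.

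**Figure D2:**
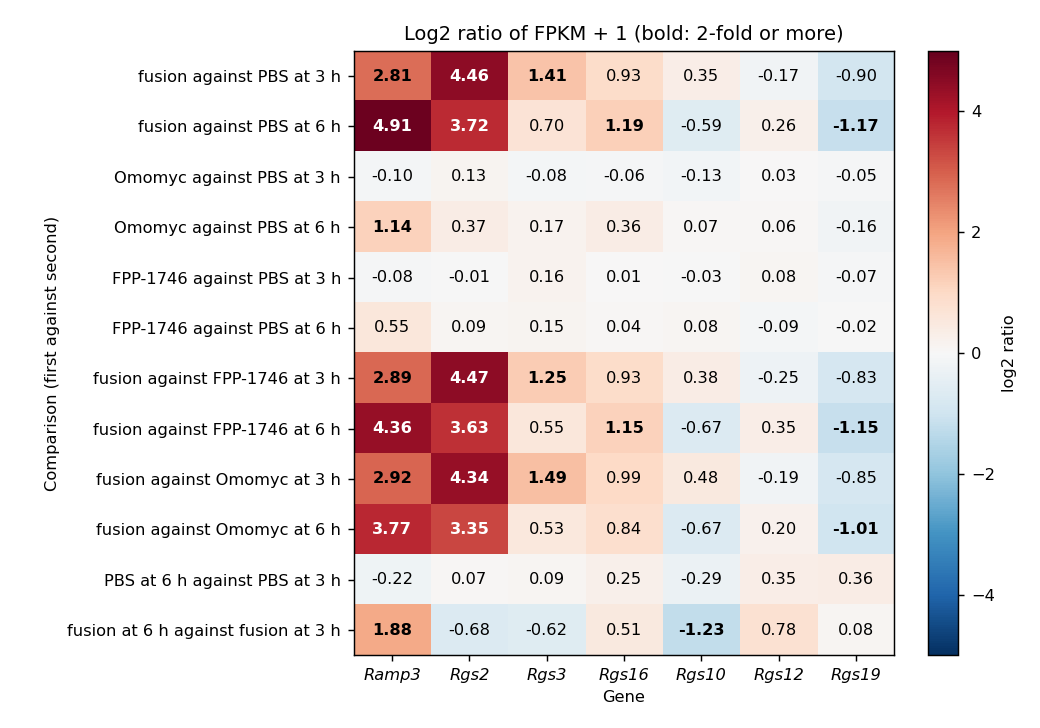
Log2 ratio of FPKM + 1 of the 7 members (columns) in 12 comparisons (rows), with red for higher and blue for lower in the first-named group, and bold for 2-fold or more. The rows of Omomyc and FPP-1746 against PBS hold a single bold value, 1.14 for Ramp3 with Omomyc at 6 h.

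Rgs19 was the 1 member called lower in the fusion. It encodes GAIP, an RZ-family RGS protein of the Gi class that is anchored to membranes by lipids. At 3 h it stood at 41.0 FPKM in PBS, 39.6 in Omomyc, 39.0 in FPP-1746 and 21.5 in the fusion. At 6 h the values were 52.7, 47.2, 51.8 and 22.9 FPKM. The fusion columns lay below all 6 others, and the columns without the fusion spanned at most 1.12 times at either time. PBS was 1.91 times the fusion at 3 h (log2 ratio -0.90, not called) and 2.31 times at 6 h (log2 ratio -1.17). The fusion values differed little between the times, a log2 ratio of 0.08, while PBS was higher at 6 h by 0.36. With the mean of both PBS columns as reference Rgs19 passed at 3 h too, at -1.09. Against Omomyc at 6 h the log2 ratio was -1.01, which fell short of 2-fold at -0.91 with a pseudocount of 5 and at -0.99 under median-of-ratios scaling. Rgs19 lies on chromosome 2 from 181423128 to 181428629.

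The 3 members of the R12 family, Rgs10, Rgs12 and Rgs14, were not called against PBS. Rgs10 encodes a short RGS protein of the Gi class. It stood at 15.8 FPKM in PBS, 14.3 in Omomyc, 15.4 in FPP-1746 and 20.4 in the fusion at 3 h. At 6 h it stood at 12.8, 13.5, 13.6 and 8.12 FPKM. The fusion was thus the highest column at 3 h and the lowest at 6 h, with log2 ratios to PBS of 0.35 and -0.59. Neither reached 2-fold, but the fusion at 6 h against the fusion at 3 h did, at -1.23, where 12.2% of all tested genes were called. With a pseudocount of 5 that ratio was -0.95 and not called. In PBS the log2 ratio between the same times was -0.29.

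Rgs12 encodes a large RGS protein that also holds Ras-binding and GoLoco domains. Its values at 3 h were 2.30 FPKM in PBS, 2.37 in Omomyc, 2.49 in FPP-1746 and 1.95 in the fusion. At 6 h they were 3.21, 3.39, 2.97 and 4.05 FPKM. The fusion was the lowest column at 3 h and the highest at 6 h, the reverse of Rgs10, by log2 ratios to PBS of -0.17 and 0.26, both small. The table gives Rgs12 a locus shared with Mir3097, which was listed at 0 in all columns. Rgs14, of the same family, was at most at 0.0254 FPKM and is below what these values can compare.

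Ramp3 and Rgs2 were also called when the carrier peptide or Omomyc was the reference. Against FPP-1746, Ramp3 gave log2 ratios of 2.89 and 4.36 at 3 h and 6 h, and Rgs2 gave 4.47 and 3.63. Against Omomyc, Ramp3 gave 2.92 and 3.77, and Rgs2 gave 4.34 and 3.35. The drop for Ramp3 at 6 h follows from its Omomyc value of 2.85 FPKM. In these comparisons 9.87% and 10.1% of all tested genes were called against FPP-1746, and 9.33% and 9.66% against Omomyc. These comparisons share the fusion columns with those against PBS. Between the PBS columns no member passed 2-fold, with log2 ratios of -0.29 to 0.36, and 0.867% of all tested genes did.

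**Figure D3:**
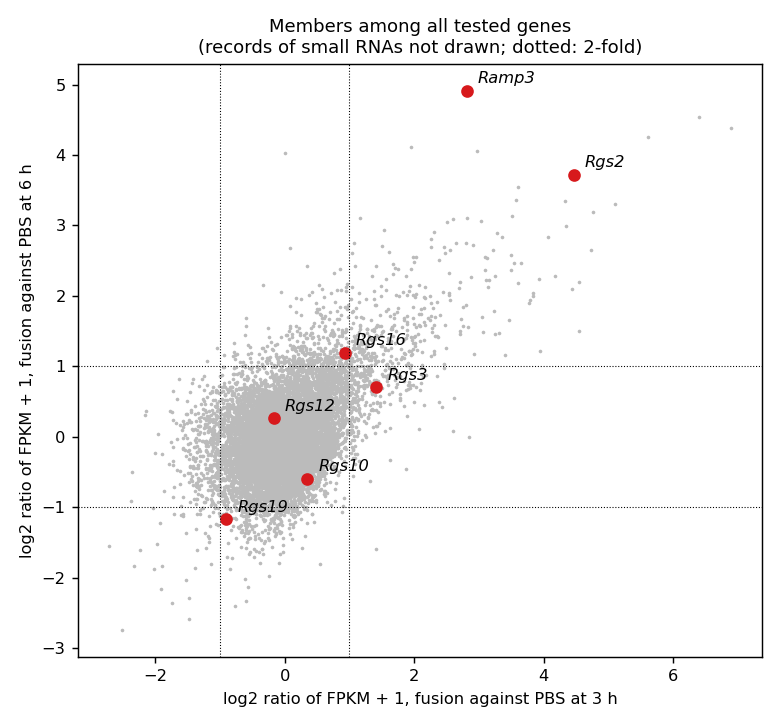
Log2 ratio of FPKM + 1 of the fusion to PBS at 3 h (horizontal) and 6 h (vertical) for all tested genes (grey points, records of small RNAs not drawn) and the 7 members (red, named), with dotted lines at 2-fold. Ramp3 (2.81 and 4.91) and Rgs2 (4.46 and 3.72) lie in the upper right, Rgs16 and Rgs3 near the lines, and Rgs10 and Rgs12 within them. Rgs19 (-0.90 and -1.17) lies to the lower left, below the lower horizontal line.

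Of the 7 members, Ramp3 and Rgs2 were called higher at both times, as were 3.39% of all tested genes. Between the fusion columns the members went different ways from 3 h to 6 h. Ramp3 (log2 ratio 1.88), Rgs12 (0.78) and Rgs16 (0.51) were higher at 6 h. Rgs10 (-1.23), Rgs2 (-0.68) and Rgs3 (-0.62) were lower. Of these, Ramp3 and Rgs10 passed 2-fold. No test of the difference between the times could be made.

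The make-up of the RGS mRNA pool differed between the fusion and the other groups. FPKM is scaled by length, so the levels of the 20 Rgs genes with a number for a name can be summed. Their sum was 142 FPKM in PBS and 247 in the fusion at 3 h, and 169 and 287 FPKM at 6 h. Omomyc and FPP-1746 gave 136 and 140 FPKM at 3 h, and 190 and 171 FPKM at 6 h. Rgs16 was the largest part everywhere, with 51.8% of the sum in PBS and 57.1% in the fusion at 3 h, and 51.5% and 69.9% at 6 h. Rgs2 made up 0.959% in PBS and 20.7% in the fusion at 3 h. At 6 h its share was 0.866% in PBS, and in the fusion it supplied 31.5 of 287 FPKM. Rgs19 went the other way, from 29.0% in PBS to 8.72% in the fusion at 3 h, and from 31.2% to 7.97% at 6 h. Omomyc at 6 h lay on the same side of PBS as the fusion, at 59.1% for Rgs16 and 24.9% for Rgs19. In bulk RNA, fewer cells with a transcript and less of it per cell cannot be told apart.

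**Figure D4:**
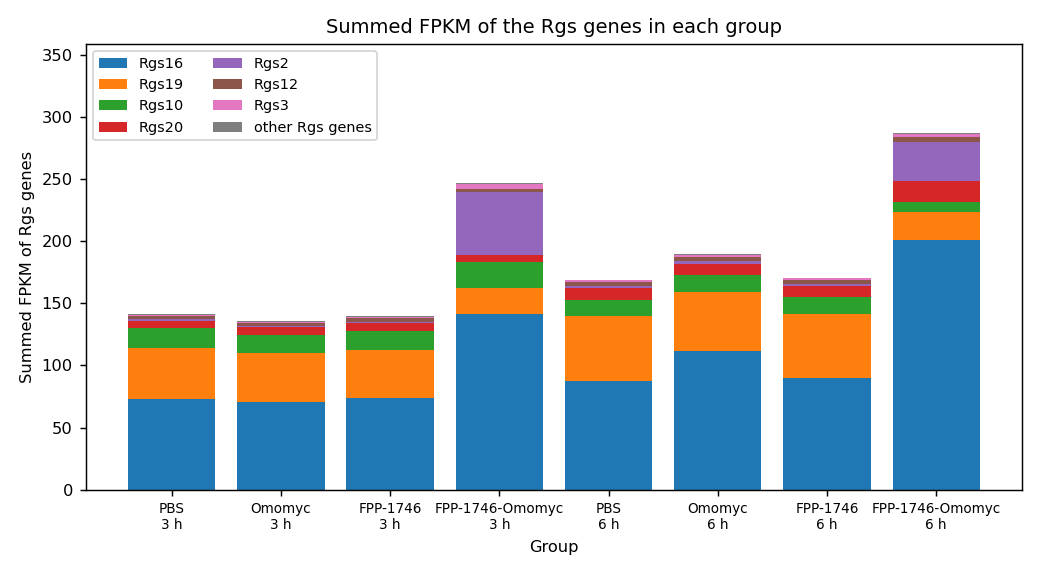
Summed FPKM of the Rgs genes in each of the 8 groups, stacked by gene, with 1 averaged column per bar and no error bars. The fusion bars reach 247 and 287 FPKM, with more Rgs16 and Rgs2 and less Rgs19 than the bars beside them, which lie between 136 and 190 FPKM.

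The rest of the RGS family was hardly detected in T11 cells. Of 15 further Rgs and RGS-binding-protein genes in the table, 14 stayed under 1 FPKM in every column, at most at 0.518 FPKM, and 2 of these were listed at 0 throughout. Rgs5, a pericyte marker, was at most at 0.0425 FPKM. The exception was Rgs20, an RZ-family gene like Rgs19, which stood at 6.06 FPKM in PBS and 6.02 in the fusion at 3 h, and at 9.99 and 16.7 FPKM at 6 h. Its log2 ratio at 6 h was 0.69 and was not called. Rgs20 and Rgs19 thus lay on different sides of PBS at 6 h.

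RGS proteins act on the alpha subunits of G proteins. Of 8 tested alpha subunit genes none was called at 3 h, beside 10.6% of all tested genes, and at 6 h 2 were called, beside 10.5%. With so few genes, these counts say nothing particular about the list. At 6 h Gna13 (log2 ratio 1.01) was called higher and Gnai2 (-1.01) lower. Gna13 encodes a G12/13-class subunit, and Gnai2 the Gi-class subunit that lowers cAMP. Gna13 stood at 10.5 FPKM in PBS and 22.1 in the fusion, and Gnai2 at 206 and 102 FPKM. Both ratios lie at the threshold, and neither was called with a pseudocount of 5 or under quantile normalisation. The median log2 ratio of the 8 genes was -0.12 at 3 h and -0.06 at 6 h, beside 0.003 and -0.026 over all tested genes. None of 10 tested beta and gamma subunit genes was called at either time, with medians of 0.10 and -0.33. Of 8 receptor kinases, arrestins and other G-protein regulators, Grk6, a kinase that phosphorylates activated receptors, was called lower at 6 h, at 86.6 FPKM in PBS and 31.4 in the fusion (log2 ratio -1.44).

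Downstream of the G proteins, the list of cAMP synthesis, breakdown and protein kinase A had 2 of 23 tested genes higher and 1 lower at 3 h, and 2 higher at 6 h. The shares called, 13.0% and 8.70%, lay near the 10.6% and 10.5% of all tested genes, so the counts are no result about the list. The higher ones were Pde4b, which encodes a cAMP phosphodiesterase, and Crem, a transcription factor gene of the cAMP response. Pde4b stood at 2.59 FPKM in PBS and 16.1 in the fusion at 3 h, and at 3.83 and 14.8 FPKM at 6 h. Crem stood at 1.98 and 8.90 FPKM at 3 h, and at 2.46 and 10.8 FPKM at 6 h. The lower one was Pde4a, another cAMP phosphodiesterase gene, at 5.66 and 2.20 FPKM at 3 h. With a pseudocount of 5 in place of 1, Pde4a (log2 ratio -0.57) and, at 3 h, Crem (0.99) were not called. The medians of the list were -0.09 and -0.03. Of 11 tested Gq effectors none was called at 3 h and 1 at 6 h: Nfatc1, a calcium-responsive transcription factor gene, at 1.55 FPKM in PBS and 4.32 in the fusion (log2 ratio 1.06, and 0.51 with a pseudocount of 5, which is no call).

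Of 9 tested receptors for lysophospholipids, thrombin, nucleotides, prostaglandins and peptides, 1 was called at each time, a share of 11.1% beside the 10.6% and 10.5% of all tested genes. Ptger4, a prostaglandin E2 receptor gene, was called higher at 3 h, at 5.81 FPKM in PBS and 13.1 in the fusion, but not with a pseudocount of 5 (log2 ratio 0.75). The gene called at 6 h, the sphingosine-1-phosphate receptor gene S1pr1, passed the minimum only through the fusion, with a mean of 0.666 FPKM over the 6 other columns, and is not counted as a change. Without S1pr1, 8 receptor genes were tested, of which 1 was called at 3 h and 0 at 6 h.

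The list of genes induced through cAMP and CREB, which was written with results of these data known and includes Rgs2 itself, had 15 tested genes, of which Fos, Nr4a3 and Btg2 passed the minimum only through the fusion. The other 12 averaged 1 FPKM or more in the 6 columns without the fusion. Of these, 11 were higher at each time and none was lower. Of all genes that met this minimum, 5.74% were higher at 3 h and 6.65% at 6 h. The list was written with results known and holds Rgs2, so its count is not read against these shares. The minimum without the fusion was chosen after the values were seen. With a pseudocount of 5, Crem at 3 h and Ppargc1a at 6 h (log2 ratio 0.88) were not called. Of these 12, the 3 largest ratios at 3 h were those of Nr4a1, Nr4a2 and Rgs2. These genes also answer to other signals, and cAMP was not measured. Neither Omomyc nor FPP-1746 alone called any gene of the list at either time, where 0.555% to 0.682% of all tested genes were called. With such low shares, the lack of calls is no result about the list. The 15 genes, Fos, Nr4a3 and Btg2 included, had medians of 0.17 and 0.38 for Omomyc at 3 h and 6 h. Over all tested genes the medians were 0.011 and 0.001. For FPP-1746 the list medians were 0.15 and 0.08, beside 0.005 at both times. Because of how the list was chosen, these medians are not read as a shift of the list. Ptgs2 with FPP-1746 at 3 h had the highest log2 ratio, 0.87, under 2-fold. The list shares Pde4b, Crem and Pde4d with the list of cAMP enzymes.

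**Figure D5:**
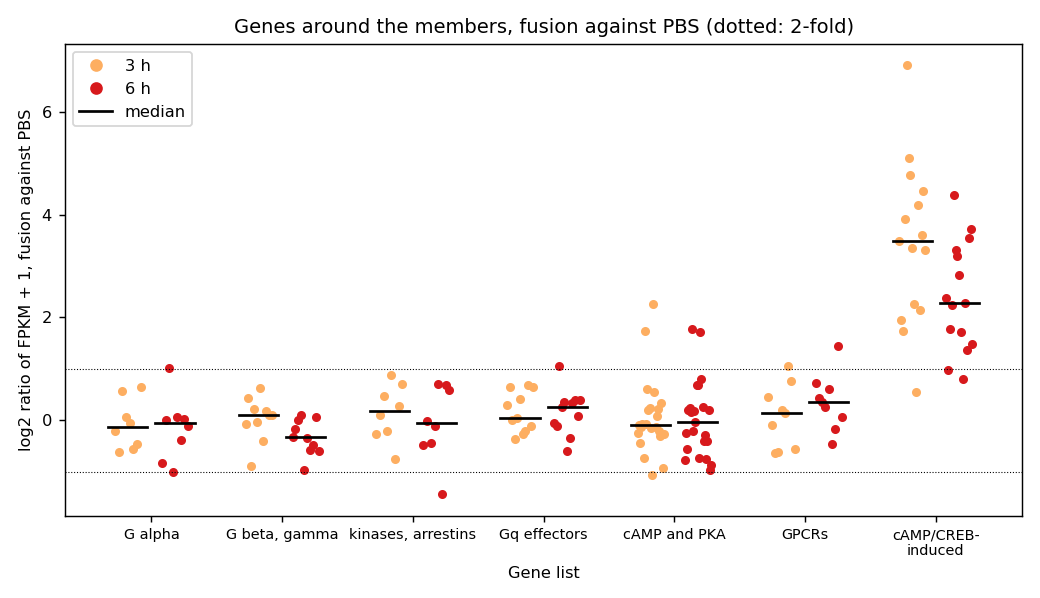
Log2 ratio of FPKM + 1 of the fusion to PBS for the tested genes of 7 lists (points), at 3 h (orange) and 6 h (red), with the median of each list as a black line and dotted lines at 2-fold. Medians of 6 lists lie between -0.33 and 0.35, and that of the genes induced through cAMP and CREB at 3.49 and 2.28. Drawn and counted in these medians are 3 genes of that list and S1pr1, which passed the minimum only through the fusion. Without those 3 genes the medians of the cAMP and CREB list were 3.55 and 2.26.

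The genes most like Ramp3, Rgs2 and Rgs3 across the 8 columns were found by the root mean square difference of log2(FPKM + 1), each gene centred on its own mean. Nearest to Ramp3 was Eda2r, a receptor gene of the tumour necrosis factor family, at a difference of 0.24. Eda2r was at 1.35 FPKM in PBS and 17.4 in the fusion at 3 h, and at 1.68 and 43.8 FPKM at 6 h. Next came Trib3 (0.47), Cd14 (0.51), Il6 (0.58) and Gla (0.59), which were farther off. Eda2r was thus the closest by a margin. Like Ramp3, the genes Eda2r, Trib3, Cd14 and Gla were higher in the fusion at 6 h than at 3 h, while Il6 was lower. All were picked for their likeness to Ramp3.

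Nearest to Rgs2 was Chac1, a gene of glutathione breakdown, at 0.18, with 13.6 and 292 FPKM in PBS and the fusion at 3 h and 14.6 and 157 FPKM at 6 h. Nr4a2 (0.25), Egr1 (0.32), Il6 (0.33) and Sox9 (0.33) followed. Of these, Nr4a2 and Egr1 are immediate-early transcription factor genes. Nearest to Rgs3 were Cln8 (0.085), Tgfb1 (0.098), Sema4c (0.099), Ptp4a1 (0.10) and Sesn3 (0.11). Their log2 ratios to PBS ran from 1.15 to 1.44 at 3 h and from 0.53 to 0.79 at 6 h. The smaller ratio at 6 h, which Rgs3 also has, follows from picking genes by their likeness to Rgs3. The 8 columns share their libraries between genes, and likeness over 8 averaged values says nothing of shared control.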

How the data were processed

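The authors deposited 1 table of average FPKM per group, per the file headers, so depth per library is not given. Tools in the submitters' processing notes are STAR 2.1.3, Cufflinks 2.2.1, Cuffnorm 2.2.1 and bcl2fastq 2.17.1.14, with no order given and with mm9 as the build. Settings, library scaling and use of strand are not stated there, so reads of overlapping or antisense genes cannot be told apart.

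From the FPKM values, log2 ratios of FPKM + 1 were computed in 12 comparisons with pandas 2.3.3 and numpy 2.4.6, and genes averaging 1 FPKM or more were called at 2-fold. The calling code was run on simulated 4-fold changes in genes above 5 FPKM. That run checks the code and does not bear on calls near 2-fold or near 1 FPKM. Members and gene lists were chosen with earlier results of these data known. Named are all members, other Rgs genes above the minimum, up to 4 called genes of each list with the largest fusion ratio, and the 5 genes most like each of 3 members. Alternatives changed the pseudocount, filter, fold, scaling and reference column. Leaving out 141 records of small RNAs, and setting the minimum on the columns without the fusion, were chosen after seeing the data, as was naming Nr4a3, Btg2 and Ppargc1a. Starts were shifted to count from 1, since spans of 7165 rows equalled the RefSeq length with starts read as counting from 0, and 456 otherwise. A gene of a list is not reported here and was left out of its counts.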

Additional observations from a re-analysis of the deposited data

How the results depend on the processing

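Every count of members past 2-fold was recomputed with a pseudocount of 0.1 or 5, no filter, a 1.5-fold rule, quantile normalisation, median-of-ratios scaling, without records of small RNAs, and with the minimum set on the 6 columns without the fusion. Other reference columns were run only against PBS: the mean of both PBS columns for 6 counts, and the mean of the 3 other columns of the same time for 2. Of 104 such counts, 97 were within 1.5 times of the reported one. The settings with no filter, without small RNAs or with the minimum on the other columns could not change a member count. The members tested meet each of these rules, and the rest lie near 0. The range also takes in a step from 3 to 2, for the fusion against PBS at 3 h with a pseudocount of 5. It takes in a step from 4 to 6 at 6 h under the 1.5-fold rule. With a pseudocount of 5 the count was 0 for Omomyc against PBS at 6 h and 1 for the fusion at 6 h against 3 h. By construction the 1.5-fold rule called more: 5 members each for the fusion against PBS, FPP-1746 and Omomyc at 3 h, against Omomyc at 6 h, and between the fusion columns. No called log2 ratio of a member to PBS changed sign. Over these settings Ramp3 ranged from 1.60 to 3.56 at 3 h and from 3.30 to 5.93 at 6 h, and Rgs2 from 3.14 to 5.13 and from 2.50 to 4.34. Of 180 counts for the gene lists, 32 moved by more than 1.5 times. Over all tested genes the fusion calls fell to 535 and 517 with a pseudocount of 5, from 1083 and 1075, and were 3104 and 3351 at 1.5-fold. No scaling moved the median of all genes by more than 0.06 on the log2 scale. No paired analysis was possible because the columns are group means and carry no replicate numbers, and no replicate could be left out for the same reason. Low FPKM limits Ramp1, Ramp2, Rgs14 and Calcrl, which were not compared.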
